A study of Mus musculus with 6 samples.

Results

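Ephrins, Slits and netrins with their receptors, and the related RGM proteins and the adhesion molecule Alcam, were followed in mouse epithelium that covers the gonadal primordium, the forerunner of the gonad. The set held 42 genes chosen by name, with earlier results of these data known. A probe set belonged to it when the array's annotation gave exactly 1 of these symbols. On this rule 94 of the 45101 probe sets on the array named 41 of the 42 genes. Ephb2 had no such probe set and was not analysed here.

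The groups were 3 pools of Emx2 KO (-/-) epithelium and 3 pools of wild-type (+/+) epithelium, all from fetuses at E10.5, with microdissected material of 3 fetuses in each pool. Emx2 is a homeobox gene required for the urogenital system. The question was what its loss changes in that tissue. No source used here gives the allele, strain, litters or sex of the fetuses. The spread behind each p-value is that between pools. Emx2 itself read 1678, 1480 and 1746 in KO pools against 1302, 2120 and 1727 in wild-type pools (log2 change -0.05, adjusted p = 0.916), and whether its only probe set lies in the deleted part is not given, so it does not check the labels. Emx2os, named for the opposite strand of the locus, had 38.8 ± 8.88 in KO and 190 ± 34.7 in wild-type pools (SD, n = 3 each; -2.30 on the log2 scale, limma adjusted p = 0.00015), without overlap. All 12 genes of a gonadal epithelium list, among them Wt1, Lhx9, Nr5a1 and Krt8, were bright enough to be tested. In KO pools 3 of them were higher (Bnc1, Krt19 and Lrrn4) and 2 lower (Krt8 and Nr5a1). All 12 genes of a mesenchyme list were bright enough too, so this does not identify the tissue. Sex markers separated the groups: Xist was higher in KO pools (8.47 on the log2 scale) and all 3 measured Y-linked genes (Eif2s3y, Kdm5d and Uty) were lower. Sex and genotype of the pools therefore cannot be told apart, and Efnb1 is the only X-linked gene of the set.

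These families steer growing axons, vessels and migrating cells by attraction or repulsion. Ephrins are ligands held at the cell surface, those of class A by a lipid anchor and those of class B by a transmembrane segment, and they bind Eph receptor tyrosine kinases on neighbouring cells. Slits are secreted and signal through Robo receptors. Netrins attract through Dcc and Neo1 and repel through Unc5 receptors. RGM proteins are membrane-anchored ligands of Neo1 and co-receptors for BMPs. Slit2 and Robo2 are known in the same region of the embryo for setting the place where the ureteric bud leaves the nephric duct.

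Receptors made up most of what changed. At the brightest tested probe set of each gene, 7 genes rose in KO epithelium (Epha3, Epha7, Robo1, Robo2, Unc5b, Unc5c and Ntng2), 1 fell (Slit2) and 24 did not pass. Ntng2 was bright enough to be tested only through its KO pools, so its call is not independent of that filter, and 6 rose without it. The threshold was an adjusted p of 0.05 in limma's moderated test, with Benjamini-Hochberg adjustment across the 27022 probe sets tested, and a log2 change is the log2 fold change, KO minus wild-type. With this threshold 2.93% of all tested genes were higher and 2.48% lower. These 8 were 25% of the 32 genes of the set that were bright enough to be tested, where 5.41% of all 12315 tested genes passed. This share, the share by probe set and the median given below all include Ntng2. The members were chosen with earlier results of these data known, so these shares cannot show that the set stands out. Among receptors 6 of 16 tested rose and 0 fell, with 8 higher and 1 lower at an unadjusted p under 0.05. Among ligands 0 of 13 rose and 1 fell, with 4 higher and 3 lower at an unadjusted p under 0.05. Ntng2, a membrane-anchored relative of netrins, was counted with neither. By probe set, 11 were higher and 2 lower of 63 tested (20.6%), against 4.68% of all tested probe sets (2.75% higher and 1.93% lower). The median log2 fold change of the 32 genes was 0.38, and that of all tested genes was -0.01. These calls depended on leaving out dim probe sets: with no such filter, in which 151 probe sets of the whole array passed, 1 of these probe sets did, that of Slit2.

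**Figure D1:**
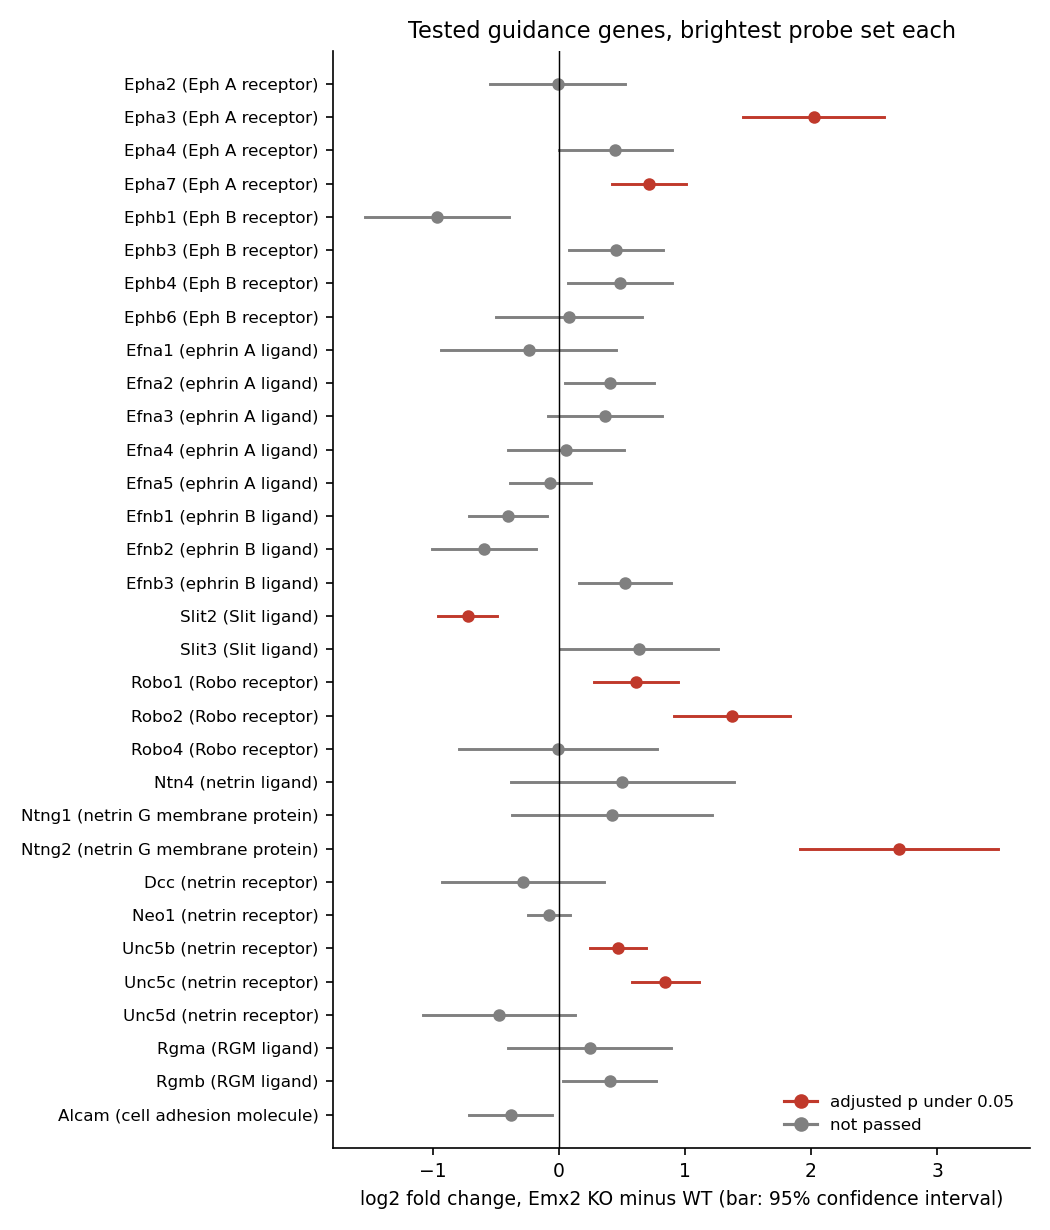
Log2 fold change, Emx2 KO minus wild-type, of the 32 tested guidance genes at their brightest probe set, ordered by family. Points are estimates, bars are 95% confidence intervals, and red marks the 8 genes past the threshold: 6 receptors and Ntng2 lie right of 0 and Slit2 lies left of it.

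Promoter sequences are shown for the genes that passed at more than 1 probe set and have a single listed start, so that genes that rose (Epha3, Unc5c) can be set beside the one that fell (Slit2). They are taken from RefSeq (GRCm38.p6), which listed 43 promoters for 36 of the 42 genes, each running from 250 bases before to 50 after the start of transcription, and are written 5′ to 3′ on the gene's strand. Capitals mark the core of homeobox protein sites (TAAT, or ATTA on the other strand), the TATA box (TATAAA, or TTTATA) and the GC box (GGGCGG, or CCGCCC).
Epha3, chr16:63864126-63864425, minus strand: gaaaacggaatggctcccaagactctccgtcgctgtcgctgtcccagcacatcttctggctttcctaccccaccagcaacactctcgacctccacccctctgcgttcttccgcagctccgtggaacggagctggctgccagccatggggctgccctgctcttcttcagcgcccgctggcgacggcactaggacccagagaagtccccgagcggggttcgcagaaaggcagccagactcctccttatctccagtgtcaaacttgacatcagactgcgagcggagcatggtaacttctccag
Unc5c, chr3:141465314-141465613, plus strand: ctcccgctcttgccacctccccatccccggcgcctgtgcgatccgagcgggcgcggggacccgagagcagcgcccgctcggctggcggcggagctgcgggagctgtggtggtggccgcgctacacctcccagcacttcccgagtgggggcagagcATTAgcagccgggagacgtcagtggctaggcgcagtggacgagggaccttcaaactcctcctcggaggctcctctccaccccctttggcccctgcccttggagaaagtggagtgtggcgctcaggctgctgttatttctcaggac
Slit2, chr5:47982905-47983204, plus strand: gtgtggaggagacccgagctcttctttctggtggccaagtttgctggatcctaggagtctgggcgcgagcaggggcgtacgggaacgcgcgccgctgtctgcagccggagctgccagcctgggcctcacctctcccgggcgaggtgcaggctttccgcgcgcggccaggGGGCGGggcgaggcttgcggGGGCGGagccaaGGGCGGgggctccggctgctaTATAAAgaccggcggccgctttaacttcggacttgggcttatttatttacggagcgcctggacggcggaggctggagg
The Slit2 promoter held 1 TATA box, beginning 28 bases before the start, and 3 GC boxes. The Unc5c promoter held 1 TAAT core, beginning 95 bases before the start, and the Epha3 promoter held none of these motifs. The full homeobox site TAATTA, which reads the same on both strands, was in 0 of the 11 promoters of the 8 genes past the threshold, in 3 of the 43 of the whole set (6.98%) and in 5.29% of all 32851 RefSeq promoters. The TAAT core, which TAATTA contains, was in 6 of the 11 (54.5%), in 16 of the 43 (37.2%) and in 58.0% of all. The Nr5a1 half-site AAGGTCA, looked for on both strands, was in 0 of the 11, 0 of the 43 and 4.72% of all. The TATA box was in 1 of the 11, in 4 of the 43 (9.3%) and in 13.6% of all. The GC box was in 4 of the 11 (36.4%), in 30 of the 43 (69.8%) and in 35.7% of all. Besides Slit2, it was in the promoters of Unc5b, which held 3, and of Epha7, and both these genes rose. The 11 count the overlapping promoters of Epha7 separately.

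Among Eph A receptors, Epha3 and Epha7 rose. Epha3, a receptor best known from the mapping of retinal axons and from the heart's endocardial cushions, had scaled intensities of 388, 233 and 465 in KO pools against 81.9, 112 and 68.7 in wild-type pools. The lowest KO pool was above the highest wild-type pool. The means were 362 ± 118 in KO and 87.4 ± 22.0 in wild-type pools (SD, n = 3 each; log2 change 2.02, SE 0.26, limma adjusted p = 0.00058). A dimmer Epha3 probe set read 152, 117 and 215 in KO pools against 38.2, 31.3 and 37.1 in wild-type pools, again without overlap (2.14, SE 0.26, adjusted p = 0.000393). The other Epha3 probe sets lay at the intensity floor of 7.99 in all 6 arrays and were not tested.

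Epha7, a receptor of the developing brain and neural tube that also has truncated forms without the kinase, rose at 3 of its 4 tested probe sets. The brightest read 3781, 2961 and 3810 in KO pools against 2172, 1761 and 2531 in wild-type pools (log2 change 0.71, SE 0.13, adjusted p = 0.00804). All KO pools lay above all wild-type pools. The next read 1602, 1341 and 1507 in KO pools against 898, 802 and 1064 in wild-type pools (0.69, SE 0.12, adjusted p = 0.00594), and a dimmer one 301, 260 and 318 against 149, 127 and 123 (1.14, SE 0.17, adjusted p = 0.00151). The dimmest, with means of 79.7 ± 14.1 in KO and 64.7 ± 5.12 in wild-type pools, did not pass (0.29, adjusted p = 0.579).

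Epha4, a receptor that binds ephrins of both classes, gave log2 fold changes from 0.09 to 0.53 at its 4 tested probe sets, and none passed. Its brightest read 258, 206 and 165 in KO pools against 157, 178 and 124 in wild-type pools, and these overlapped. The 95% confidence interval of that log2 fold change ran from -0.00 to 0.90. Epha2, a receptor of epithelia, gave 74.0 ± 14.9 in KO and 74.5 ± 14.1 in wild-type pools (-0.01, 95% interval -0.55 to 0.53). Epha1, Epha5, Epha6 and Epha8 were left out as dim, with means of at most 20.7 in KO and 19.1 in wild-type pools at any probe set, under the dim limit of 26.4.

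No Eph B receptor passed. Ephb1, whose known roles include guidance of retinal axons at the midline, read 56.5, 87.6 and 84.1 in KO pools against 140, 206 and 108 in wild-type pools. Every KO pool was below every wild-type pool, but the adjusted p was 0.0589 (log2 change -0.97, SE 0.26, 95% interval -1.54 to -0.39). The gene passed in 5 of the 12 alternative settings that kept all pools. These include the threshold of 0.1, which an adjusted p of 0.0589 passes by definition. Ephb3 read 382, 497 and 630 in KO pools against 379, 355 and 344 in wild-type pools (0.46, SE 0.17, adjusted p = 0.18). Ephb4, the receptor of venous endothelium, read 137, 143 and 124 in KO pools against 104, 102 and 84.5 in wild-type pools (0.48, SE 0.19, adjusted p = 0.202). Neither gene had overlapping groups, which was also so for 28 of the 63 tested probe sets of the guidance genes and for 22% of all tested probe sets. Ephb6, a receptor without kinase activity, gave 0.08 (95% interval -0.50 to 0.66). Counted at an unadjusted p under 0.05 in the same fit, 2 Eph B receptors were higher and 1 lower.

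Of the ephrins that bind these receptors, 8 were tested and 0 passed, with 2 higher and 2 lower at an unadjusted p under 0.05 in limma's test. Efna5, a ligand of Epha3 and Epha7 in the visual system, read 670, 888 and 604 in KO pools against 678, 817 and 748 in wild-type pools. The groups overlapped (log2 change -0.07, SE 0.15, 95% interval -0.39 to 0.25). Efna2 read 1108, 1530 and 899 in KO pools against 899, 903 and 810 in wild-type pools, and these overlapped (0.40, adjusted p = 0.214). Efna3 gave 0.37, Efna4 0.06 and Efna1 -0.24, with adjusted p from 0.41 to 0.93.

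The class B ephrins lay on both sides of 0. Efnb2, the ligand of Ephb4 and a marker of arterial endothelium, read 423, 663 and 494 in KO pools against 992, 614 and 787 in wild-type pools, overlapping at KO replicate 2 (log2 change -0.60, SE 0.19, 95% interval -1.01 to -0.18, adjusted p = 0.11). It passed without KO replicate 2 and without wild-type replicate 2. Efnb1 read 515, 614 and 626 in KO pools against 842, 853 and 641 in wild-type pools (-0.41, SE 0.14, adjusted p = 0.146), and its next probe set had 463 ± 39.1 in KO and 628 ± 41.1 in wild-type pools (-0.44, adjusted p = 0.0714). The groups did not overlap at either, and Efnb1 is X-linked in pools that also differ in Xist. Efnb3 had 401 ± 66.5 in KO and 279 ± 45.4 in wild-type pools (0.52, SE 0.17, adjusted p = 0.112).

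Slit2 fell, whereas its receptors Robo1 and Robo2 rose. Slit2, a secreted ligand, read 756, 724 and 834 in KO pools against 1326, 1242 and 1250 in wild-type pools. The highest KO pool was far below the lowest wild-type pool, and the spread within each group was small (771 ± 56.5 in KO and 1273 ± 46.2 in wild-type pools, SD, n = 3 each; log2 change -0.72, SE 0.11, adjusted p = 0.00166). A dimmer Slit2 probe set read 304, 268.5 and 263 in KO pools against 631, 409 and 532 in wild-type pools (-0.89, SE 0.17, adjusted p = 0.00761), and the dimmest, at 34.0 ± 11.7 in KO and 35.3 ± 12.6 in wild-type pools, did not pass (-0.04).

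Slit3 read 69.6, 69.1 and 69.0 in KO pools against 68.9, 36.9 and 34.8 in wild-type pools. The groups did not overlap, but wild-type replicate 1 was almost level with the KO pools (log2 change 0.63, SE 0.29, adjusted p = 0.284). Slit1 was left out as dim at both probe sets. The brighter read 28.8, 28.2 and 17.1 in KO pools against 25.6, 23.6 and 13.0 in wild-type pools, which overlapped (0.27 with no filter). The dimmer read 5.39, 11.1 and 1.28 in KO pools against 35.8, 27.6 and 27.2 in wild-type pools. There the wild-type pools lay just over the dim limit and the KO pools under it. Fitted with no filter, this dimmer probe set gave an adjusted p of 0.0619.

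Robo2, the Slit receptor with known roles in the nephric region, read 736, 478 and 539 in KO pools against 214, 169 and 299 in wild-type pools. No pools overlapped (584 ± 135 in KO and 228 ± 66.1 in wild-type pools, SD, n = 3 each; log2 change 1.37, SE 0.21, adjusted p = 0.00226), and this was its only probe set. Robo1 read 1115, 909 and 1149 in KO pools against 814, 545 and 736 in wild-type pools, without overlap (0.61, SE 0.15, adjusted p = 0.0406). The Robo1 call was lost without KO replicate 1, KO replicate 3 or wild-type replicate 2, where the log2 fold change was between 0.44 and 0.57, and under quantile normalization (adjusted p = 0.0503) or median scaling (adjusted p = 0.0611), and with the mean of its probe sets (0.50, adjusted p = 0.172). Its dimmer probe sets gave 0.90 (adjusted p = 0.104) and -0.02. Robo4, the Robo of endothelium, read 34.5, 47.6 and 63.9 in KO pools against 43.3, 79.4 and 30.9 in wild-type pools (-0.01, 95% interval -0.79 to 0.78). Robo3 was left out as dim. Whether the changes of Slit2 and of the Robo genes differ from each other was not tested.

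**Figure D2:**
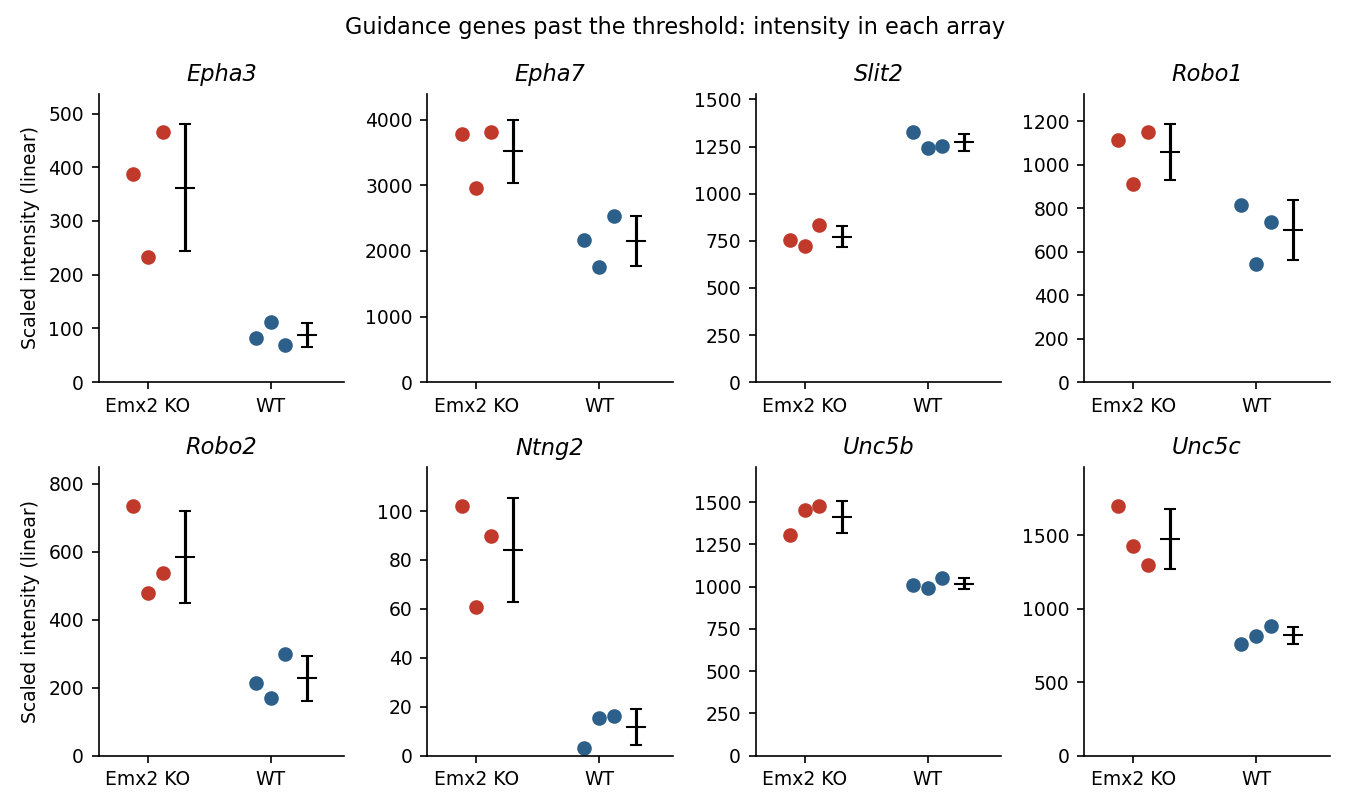
Scaled intensity (linear axis from 0) of the 8 guidance genes past the threshold at their brightest probe set, Emx2 KO left and wild-type right. Each point is a pool, and the bars beside the points show mean and SD of 3 pools. KO and wild-type pools do not overlap in any panel, and Slit2 alone is lower in KO pools.

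In the netrin families, the receptors Unc5b and Unc5c rose, Unc5d and Ntn4 did not pass, and Unc5a, Ntn1 and Ntn3 were too dim to be tested. Unc5c, a repulsive netrin receptor of cerebellar and spinal axons, read 1700, 1429 and 1296 in KO pools against 760, 813 and 880 in wild-type pools. No pools overlapped (log2 change 0.84, SE 0.12, adjusted p = 0.00143). Its other probe set read 382, 317 and 319 in KO pools against 192, 153 and 202 in wild-type pools (0.90, SE 0.17, adjusted p = 0.00686).

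Unc5b, the Unc5 receptor of vessel sprouts, read 1305, 1451 and 1478 in KO pools against 1009, 991 and 1052 in wild-type pools. The groups did not overlap and the rise was the smallest of the 7 (log2 change 0.47, SE 0.10, adjusted p = 0.0182). It passed in 2 of the 6 fits that left out 1 pool, with adjusted p up to 0.0898 in the others (lost without KO replicates 2 and 3 and without wild-type replicates 1 and 2). A dimmer Unc5b probe set gave 369 ± 53.9 in KO and 260 ± 11.4 in wild-type pools (0.49, adjusted p = 0.0967). Unc5d read 78.4, 65.8 and 42.8 in KO pools against 65.4, 86.8 and 105 in wild-type pools, which overlapped (-0.48, adjusted p = 0.429), and Unc5a was left out as dim.

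Neo1, a receptor shared by netrins and RGM proteins, read 6041, 5578 and 6099 in KO pools against 6411, 6500 and 5787 in wild-type pools. The groups overlapped (log2 change -0.08, SE 0.08, 95% interval -0.24 to 0.09), and its other 4 probe sets gave -0.08 to 0.37 with none passing. Dcc was near the dim limit at 30.7 ± 3.19 in KO and 37.7 ± 7.21 in wild-type pools (-0.28, adjusted p = 0.698). Of the secreted netrins, Ntn1 and Ntn3 were left out as dim, and Ntn4, a basement membrane protein, read 35.5, 84.4 and 42.4 in KO pools against 20.5, 54.2 and 40.1 in wild-type pools (0.50, SE 0.41, adjusted p = 0.591).

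Ntng2 gave the greatest log2 change with the floor used, but not with a higher one. It encodes netrin-G2, which binds the synaptic adhesion protein of the gene Lrrc4 rather than Dcc or Unc5 receptors, and read 102, 60.7 and 89.7 in KO pools against 3.17, 15.6 and 16.3 in wild-type pools. All wild-type pools were under the dim limit and 1 was under the floor, which sets the size of the difference (log2 change 2.70, SE 0.36, adjusted p = 0.000846). With the floor at the 40th percentile it was 1.55, below that of Epha3 (2.02), and the gene still passed. It was tested only because its KO pools (84.2 ± 21.3) raised its mean over the dim limit, and it was not tested under the stricter filter or without KO replicate 1 or 3. Its other probe set lay at the floor in all 6 arrays. Ntng1, its paralog, gave 70.1 ± 39.0 in KO and 48.8 ± 13.1 in wild-type pools (0.42, adjusted p = 0.626), and Lrrc4 was left out as dim.

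Rgmb, a co-receptor for BMPs, gave log2 fold changes from 0.11 to 0.92 at its 5 tested probe sets, all above 0, and none passed. The probe set with the greatest difference read 125, 106 and 133 in KO pools against 45.1, 81.2 and 71.2 in wild-type pools (0.92, SE 0.25, adjusted p = 0.057). The brightest read 180, 205 and 238 in KO pools against 151, 161 and 156 in wild-type pools (0.40, adjusted p = 0.237), and neither overlapped. Rgma gave 34.3 ± 2.56 in KO and 29.2 ± 4.34 in wild-type pools (0.24, adjusted p = 0.749). Alcam, an adhesion molecule on which axons bundle, read 673, 1027 and 804 in KO pools against 1222, 978 and 1031 in wild-type pools. These overlapped at KO replicate 2 (-0.38, SE 0.15, adjusted p = 0.205), while the remaining 4 gave -0.51 to 0.44.

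**Figure D3:**
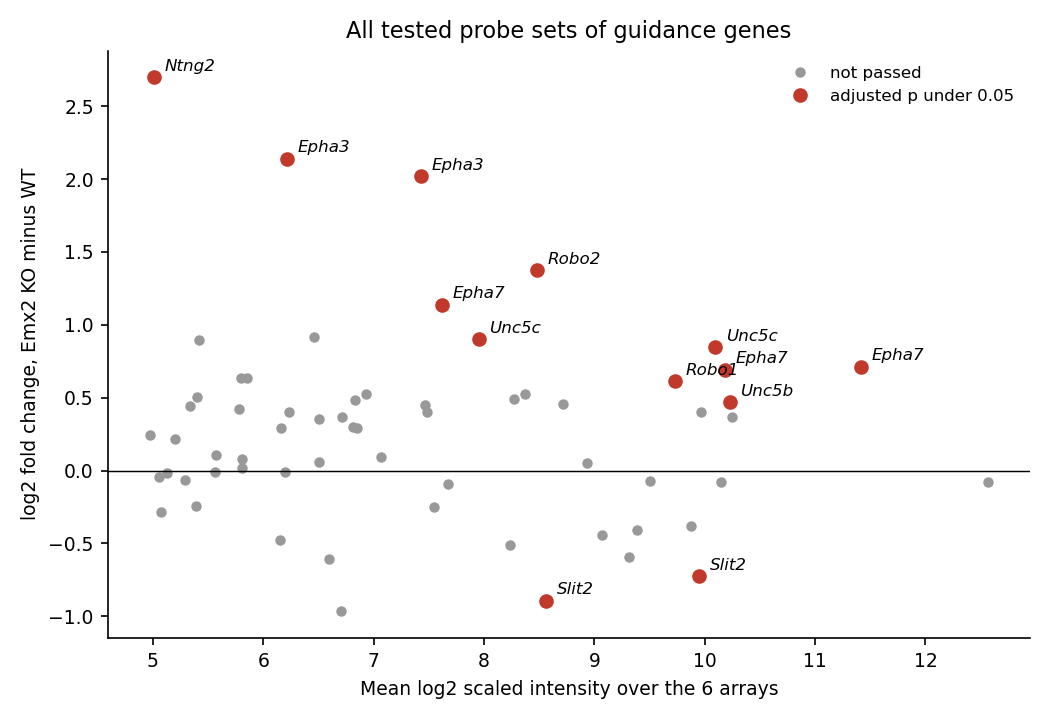
Log2 fold change, Emx2 KO minus wild-type, of all 63 tested probe sets of the guidance genes (vertical) against their mean log2 scaled intensity over the 6 arrays (horizontal). Red marks the 13 past the threshold; Ntng2 stands at the dim end, where its log2 fold change of 2.70 falls to 1.55 with a higher floor, and the probe sets of Slit2 are the only red points below 0.

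Genes listed as partners of these families passed in shares near or below the 5.41% of all tested genes, and these counts show nothing particular to them. Of 24 tested partners of Eph receptors and ephrins, such as the exchange factors Vav2, Vav3 and Tiam1, the adaptors Nck1 and Nck2 and the protease Adam10, 0 passed in limma's fit, with 2 higher and 1 lower at an unadjusted p under 0.05. The median log2 fold change of these 24 was 0.02. Kalrn, another exchange factor, was next to the threshold at its brightest probe set (-0.68, adjusted p = 0.0501). Its other tested probe sets gave -0.36 to 0.34, and none passed. Of 17 tested genes listed as Slit-Robo partners 1 rose. This was Ptprd, a receptor phosphatase, at 3583 ± 203 in KO and 2784 ± 112 in wild-type pools (0.36, SE 0.08, adjusted p = 0.026). At this probe set the call was lost in all fits that left out 1 pool except that without wild-type replicate 3. A dimmer Ptprd probe set also passed, without overlap (0.49, SE 0.10, adjusted p = 0.013). The other tested Ptprd probe sets gave 0.11 to 0.58, and none passed. Srgap2, a GTPase-activating protein that binds Robo, did not pass at its brightest probe set (0.22) but passed at a dimmer one, which read 148, 249 and 170 in KO pools against 92.2, 102 and 89.1 in wild-type pools (0.97, SE 0.21, adjusted p = 0.0206). Of 16 tested netrin and RGM partners, among them Trio, Ablim1 and Flrt2, 0 passed, with 2 higher and 2 lower at an unadjusted p under 0.05 (median 0.09).

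Markers of several other cell types moved with the genotype in the same pools. Among all tested genes 2.93% were higher and 2.48% lower. The marker lists are short, and their counts are given without a test. Of 12 mesenchyme markers 7 rose and 0 fell, and their summed intensity was 21130 to 22115 in KO pools against 14448 to 16246 in wild-type pools. At an unadjusted p under 0.05 in limma's test 9 were higher and 1, Foxf1, was lower (-0.77). Bright genes such as Col3a1, with means of 7441 in KO and 5879 in wild-type pools, weigh most in the sum. Each sum in this paragraph takes 1 probe set per listed gene and includes the genes left out of the test as dim. Of 13 tested endothelial markers 4 rose and 0 fell, with sums of 2048 to 2509 in KO pools against 1280 to 1715 in wild-type pools, Pecam1 and Tie1 being left out as dim. Of 10 tested neuronal markers 2 rose (Nefm and Stmn2) and 0 fell. The sums of this list overlapped, at 1285 to 2322 in KO pools against 1023 to 1568 in wild-type pools. Tubb3 was left out as dim by its mean, but it read 161 in KO replicate 2, against 13.6 and 15.3 in the other KO pools. Ina, Elavl3, Elavl4 and Dcx also read highest in that pool, at 190, 136, 113 and 152. Map2, at 27.9, read lowest of the KO pools there. Whether this bears on guidance genes that read highest in KO replicate 2, such as Efna2, was not tested. Of 6 tested macrophage markers 1 rose (Csf1r) and 0 fell, with sums of 558 to 729 in KO pools against 303 to 446 in wild-type pools. Other lists were lower in KO pools, as Slit2 was. Of 4 tested nephric duct markers 2 fell (Lhx1 and Pax8) and 0 rose, with sums of 133 to 195 in KO pools against 286 to 319 in wild-type pools, and Emx1, Ret and Wnt9b were left out as dim. Of 7 tested germ cell markers 3 fell (Dnd1, Dppa3 and Dppa5a) and 0 rose, with sums of 1460 to 1985 in KO pools against 2299 to 2661 in wild-type pools. Of 4 tested neural crest and glia markers and 7 blood markers 0 passed in limma, with 0 and 1 at an unadjusted p under 0.05, and their sums overlapped. No marker of these lists lay at the floor in all arrays. The part of these cells in the fall of Slit2 and in the rises of Epha3, Epha7, Robo1, Robo2, Unc5b, Unc5c and Ntng2 was not tested, and more or fewer cells of a type cannot be told apart from more or less RNA per cell in such samples.

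Epha3, Robo1 and Robo2 lie in 1 stretch of chromosome 16. In RefSeq order 20 protein-coding genes run from Epha6 to Robo2, of which 10 were tested, 3 rose and 0 fell. The genes between Epha3 and Robo1 that were tested gave log2 fold changes of -0.06 (4930453N24Rik), -0.44 (Zfp654), -0.15 (Cggbp1), 0.12 (Chmp2b) and -0.04 (Gbe1), and none passed. This stretch was picked after the values were seen and is given without a test.

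**Figure D4:**
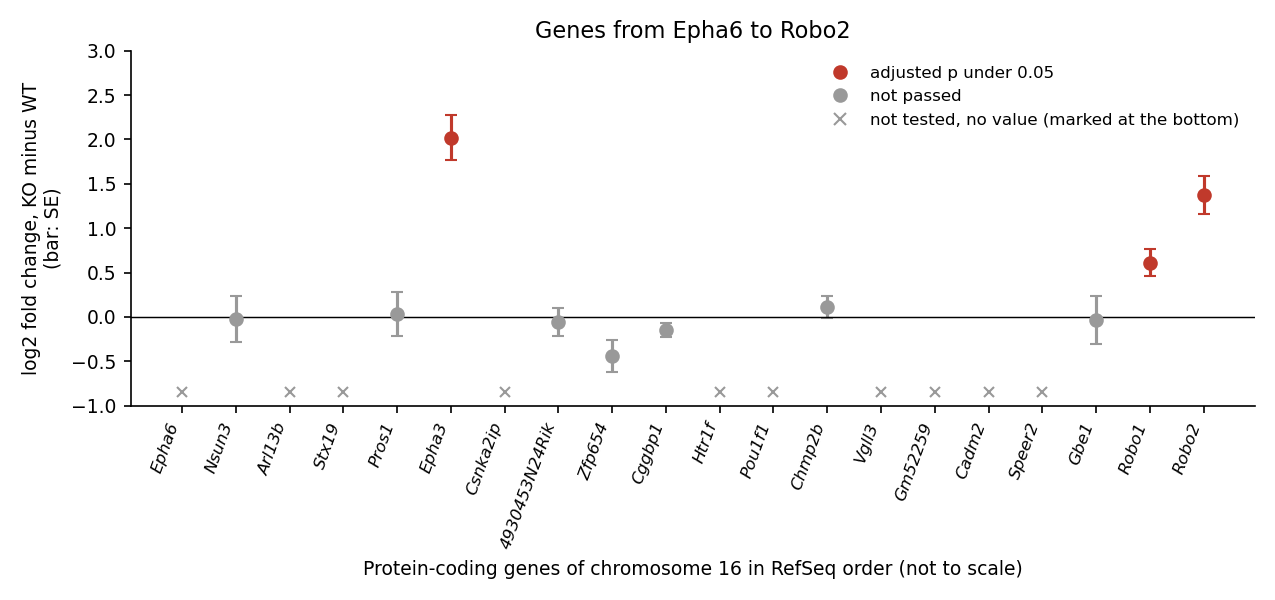
Log2 fold change, Emx2 KO minus wild-type, with SE bars, of the protein-coding genes from Epha6 to Robo2 on chromosome 16 in RefSeq order (not to scale). Red marks Epha3, Robo1 and Robo2, the 3 of 10 tested genes past the threshold; crosses at the bottom mark genes with no tested probe set.

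With each pool left out in turn, no gene past the threshold changed direction in a fit that tested it. Epha3 ranged from 1.81 to 2.31, Epha7 from 0.58 to 0.84, Robo2 from 1.18 to 1.59, Unc5c from 0.74 to 0.93 and Slit2 from -0.78 to -0.68 over these 6 fits, and each passed in all of them. Ntng2 was bright enough to be tested in 4 of the 6 and passed in those, at 2.37 to 2.92. Robo1 ranged from 0.44 to 0.73 and passed in 3 of the 6, and Unc5b ranged from 0.44 to 0.53 and passed in 2.

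**Figure D5:**
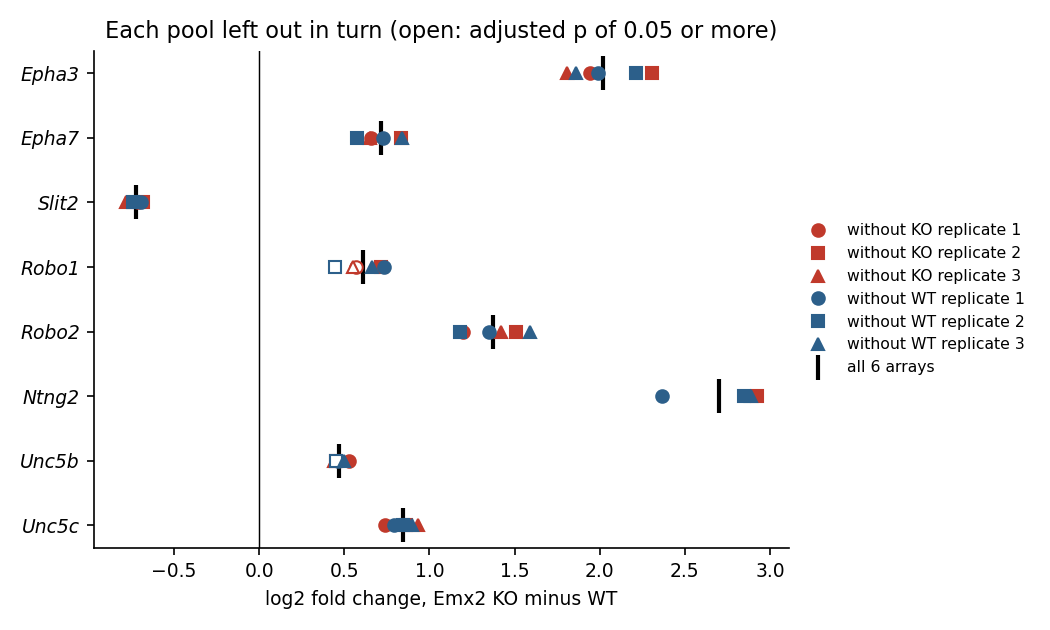
Log2 fold change, Emx2 KO minus wild-type, of the 8 genes past the threshold with 1 pool left out (symbols, red where a KO pool and blue where a wild-type pool is missing) and with all 6 arrays (black bars). Open symbols, those of Robo1 and Unc5b, did not pass; no estimate changes sign.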

How the data were processed

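Pools of laser-microdissected epithelium were each hybridised to 1 array after 2 rounds of amplification from 15 ng of RNA, per the labels' protocols. The authors deposited linear intensities, 1 per probe set and array. The submitters' processing notes name GCOS 1.2, and its algorithm and scaling are not given in the sources used here. Deposited 2% trimmed means differed up to 1.47 times between arrays, so all arrays were brought to 1 level (a 2% trimmed mean of 309). A floor was set at the 20th percentile (7.99) before the log2 step. Left out were 64 control probe sets and the dimmest 40% by mean over the 6 arrays (under 26.4). Probe sets far from a transcript's 3' end can read low after such amplification, and levels are not compared between probe sets. The number of arrays (3 per group) limits the precision, and the median SE of a log2 fold change was 0.188. Genotypes were compared in R 4.3.3 with limma 3.58.1 (intensity trend, two-sided), and the procedure was tested on simulated data. Each gene is read by its probe set of highest mean log2 value. All 41 gene identifiers matched RefSeq. Same-numbered pools did not deviate together (correlations -0.07, 0.04 and -0.05), so the main fit has no block. The members, lists and tests were chosen with earlier results of these data known. Every member is accounted for; members with a probe set past the threshold are given in full, and partner genes are named where they passed or show what a list holds. Srgap2, Kalrn and the chromosome 16 stretch were picked after their values were seen. Alternatives changed the scaling (quantile, common median), the floor (40th percentile, or a pseudocount of 16), the filter (none, or the lowest 60%), the threshold (0.1), the trend, array weights, the replicate block, the probe sets used per gene, and the pools included.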

Additional observations from a re-analysis of the deposited data

How the results depend on the processing

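With no filter on dim probe sets 1 guidance probe set passed, and 0 guidance genes were higher and 1 (Slit2) was lower. Without an intensity trend 8 probe sets passed and 4 genes (Epha3, Ntng2, Robo2 and Unc5c) were higher. The lower genes were 2, with Ephb1 added to Slit2, under quantile normalization, the filter of the lowest 60%, array weights, an adjusted p threshold of 0.1 and averaging of the probe sets of each gene. Averaging also lost Robo1, leaving 6 higher, as did quantile normalization and median scaling. Leaving out each pool in turn gave 4 to 7 genes higher and 1 to 3 lower. The 4 (Epha3, Epha7, Robo2 and Unc5c) were those without KO replicate 3; Efnb2 was added to the lower genes without KO replicate 2 or wild-type replicate 2, and Efnb1 and Ephb1 without wild-type replicate 3. Ntng2 had no value under the filter of the lowest 60% and without KO replicates 1 or 3. Over the whole array 1264 probe sets passed, against 151 with no filter, 541 with no trend, 1939 at the threshold of 0.1 and 721 to 1687 with a pool left out. With the replicate number as a block, 13 probe sets passed, 7 genes were higher and 1 was lower, as in the fit with no block, and the numbers are not known to pair the pools. Of the 8 genes past the threshold none changed direction under any alternative. Among genes that did not pass, Neo1 gave 0.37 without probe sets named _x_at or _s_at and 0.11 as the mean of its probe sets, and Epha2 gave 0.0092 with array weights. With each pool left out, the log2 fold change crossed 0 for Epha2 (-0.18 to 0.13), Ephb6 (-0.037 to 0.30), Efna1 (-0.39 to 0.030), Efna4 (-0.021 to 0.20), Efna5 (-0.23 to 0.049), Robo4 (-0.31 to 0.37) and Ntng1 (-0.0020 to 0.75). The cause of these changes was not tested. Signals near the floor limit Ntng2, Slit1 and the netrins most.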
